A study of Rattus norvegicus with 14 samples.

Results

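Slow-twitch and oxidative skeletal muscle genes were described in skin of male CD hairless rats. They comprise 6 genes: Tnnt1, Tnni1, Mybpc1, Myh7, Mb and Ckmt2. Probes were assigned to them by their transcript accession, which gave 7 of 30367 probes. All 6 were among the 18625 genes whose probe was well above background on at least 6 of 14 arrays. The genes were chosen with their signals on these arrays, by group and by slide, already known, so their own values are given as a description without a test. The study exposed rats to 94 GHz millimetre waves or sham exposed them for 3 h per day, 3 days per week, over 5.5 months. The labels give 30 housed rats, and the arrays are of 6 exposed and 8 sham animals. Skin taken at the end was profiled on 1 one-colour Agilent array per animal. The strain, sex and tissue were the same in both groups, no age is given for the rats, and the comparison asked whether chronic exposure altered skin gene expression. The numbers of animals below are names only and pair nothing.

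Skeletal muscle fibres are built either for slow, sustained contraction or for fast, brief contraction, and each kind uses its own versions of the contractile proteins. Slow fibres use slow troponins and the beta myosin heavy chain, and they are rich in mitochondria and in the oxygen-binding protein myoglobin. In rodents a thin sheet of mostly fast skeletal muscle, the panniculus carnosus, lies under the dermis, so a skin biopsy can hold muscle. In bulk tissue fewer cells of a type and less RNA per cell cannot be told apart.

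The start regions of Tnnt1, Mybpc1 and Mb are shown because these 3 genes were measured on all 14 arrays and also stand in the authors' deposited table, and because the same 4 animals were the highest for all of them. Each is the 250 bases before the transcript start in RefSeq, build GRCr8, written 5′ to 3′, and capitals mark the E-box CANNTG, the letters bound by myogenic basic helix-loop-helix factors. Tnnt1 is on the plus strand at chr1:78348785-78349034, Mybpc1 on the minus strand at chr7:24903374-24903623 and Mb on the minus strand at chr7:110647743-110647992.
Tnnt1: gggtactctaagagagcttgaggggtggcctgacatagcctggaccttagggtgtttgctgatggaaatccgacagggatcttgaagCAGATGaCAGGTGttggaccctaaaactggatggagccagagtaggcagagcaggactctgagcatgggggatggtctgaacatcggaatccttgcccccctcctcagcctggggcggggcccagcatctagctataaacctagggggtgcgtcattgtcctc
Mybpc1: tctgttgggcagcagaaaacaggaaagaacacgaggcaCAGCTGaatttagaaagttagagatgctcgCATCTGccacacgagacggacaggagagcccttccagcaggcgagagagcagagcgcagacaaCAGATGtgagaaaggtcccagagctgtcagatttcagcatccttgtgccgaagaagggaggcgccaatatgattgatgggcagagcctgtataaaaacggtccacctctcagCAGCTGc
Mb: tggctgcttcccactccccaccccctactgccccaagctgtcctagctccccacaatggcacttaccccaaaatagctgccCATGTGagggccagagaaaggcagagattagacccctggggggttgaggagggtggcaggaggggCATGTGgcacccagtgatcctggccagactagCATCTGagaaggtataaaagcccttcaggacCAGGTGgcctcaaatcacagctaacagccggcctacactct

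All 6 genes had a window of this length in the table, and motifs were searched on both strands. CANNTG was present in 6 of 6, against 65.5% of all 33469 windows. CACCC was present in 4 of 6, against 49.2%, and TATAAA in 3 of 6, against 12.9%. The 3 windows printed above hold the TATAAA matches, at positions -30 in Tnnt1, -30 in Mybpc1 and -60 in Mb, counted from the last base before the start as -1. CATTCC, the letters read by TEAD factors, was found in 0 of 6 (12.1% of all windows) and the MEF2 motif in 0 of 6 (2.96%). No match overlapped a match of another motif. Of 13 windows of fast-twitch contractile and calcium-handling genes, 10 held CANNTG, 8 CACCC, 5 TATAAA, 3 CATTCC and 4 the MEF2 motif. These are matches of letters in this window only.

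Signals below are on the log2 scale relative to the 75th percentile of each array, so 1 unit is a 2-fold step. This percentile ranged from 804.5 to 1967 scanner units, lowest in sham animal 6. The arrays lay on 4 slides, each with 1 scan. Slide 1 held 2 sham arrays and slide 2 held 2 exposed arrays. On slide 3 there were 3 arrays per group, and on slide 4 there were 1 exposed and 3 sham arrays. Markers of the labelled tissue were present, since 4 of 5 listed epidermal keratin genes were well above background on all 14 arrays. Krt14, the keratin of basal cells, had a signal of 7.02 ± 0.15 (SD, n = 6) after exposure and of 7.08 ± 0.18 (SD, n = 8) after sham exposure.

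All 6 genes had a higher mean in exposed than in sham skin, and in each of them the animals of both groups overlapped. The differences of means ran from 0.42 for Myh7 to 1.32 for Ckmt2, with a median of 0.62. Over all 18625 genes the median difference was -0.019, with 8007 genes higher and 10618 lower. The limma fit over all genes called 0 genes (0% of those tested) at an adjusted p under 0.05 and 636 genes (3.41%) at an unadjusted p under 0.05, of which 192 (1.03% of those tested) were higher in exposed skin. Of the 6 genes, 0 were called at either threshold. This contrast was known when the genes were chosen, so nothing is read from the count.

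**Figure D1:**
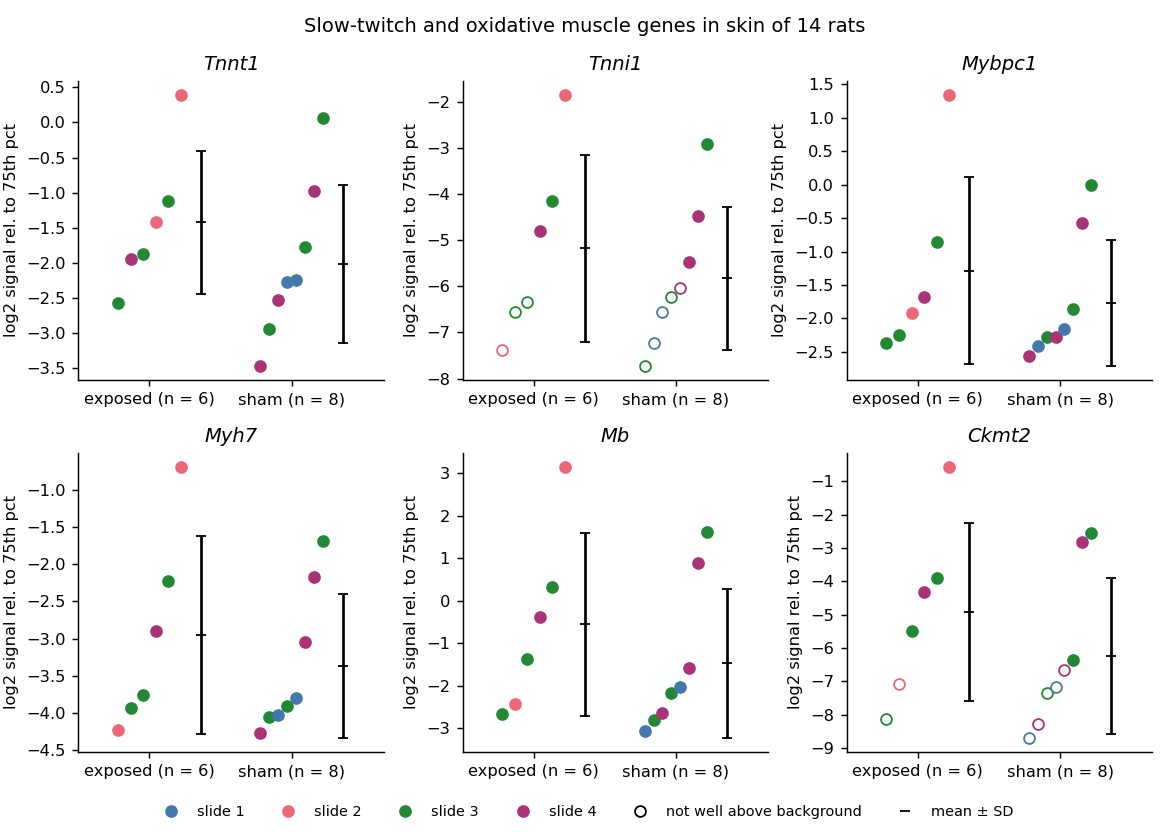
Log2 signal relative to each array's 75th percentile (vertical axis) of 6 slow-twitch and oxidative muscle genes in exposed and sham animals (horizontal axis). Each point is 1 animal, colours give the slide, open points are not well above background, and bars are mean ± SD. In every panel exposed animal 2 is the highest of all 14 animals, sham animal 5 is second, and the groups overlap.

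The thin-filament regulators were Tnnt1 and Tnni1. Tnnt1 (gene ID 171409) encodes slow skeletal troponin T, the subunit that ties the troponin complex to tropomyosin. Its signal in exposed skin was -2.57 at the lowest, -1.64 at the median and 0.40 at the highest. In sham skin it was -3.47 at the lowest, -2.26 at the median and 0.07 at the highest. Exposed animal 2 and sham animal 5 were the highest of the animals, and the other exposed animals lay inside the range of the sham animals. The means were -1.42 ± 1.02 (SD, n = 6) and -2.02 ± 1.12 (SD, n = 8), a difference of 0.60 (95% interval -0.55 to 1.74), or 1.51-fold (0.684 to 3.35). A second Tnnt1 probe gave a difference of 0.80, with the same highest and lowest animals. The difference was -0.076 with slide as a block and -0.31 within slide 3.

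Tnni1 (gene ID 29388) encodes slow skeletal troponin I, the inhibitory subunit. It was well above background on only 6 arrays, those of exposed animals 2, 5 and 6 and sham animals 5, 7 and 8, which is the smallest number the filter accepts. On these arrays its signal ran from -5.47 in sham animal 8 to -1.83 in exposed animal 2, a span of 12.4-fold. The highest sham value, in sham animal 5, was -2.90. The gene was thus above background in 3 of 6 exposed and 3 of 8 sham animals, whose values overlapped. The means over all arrays, which include values not well above background, were -5.18 ± 2.03 (SD, n = 6) and -5.83 ± 1.55 (SD, n = 8), a difference of 0.65 (95% interval -1.22 to 2.52). It was -0.018 without exposed animal 2 and -0.062 within slide 3.

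The thick-filament genes were Mybpc1 and Myh7. Mybpc1 (gene ID 362867) encodes the slow form of myosin-binding protein C, which lies along the myosin filament and tunes its contact with actin. It was well above background on all 14 arrays. Exposed skin ran from -2.37 at the lowest over -1.79 at the median to 1.35 at the highest, and sham skin from -2.56 over -2.22 to -0.0071. Most animals of both groups lay close together at the low end, and exposed animal 2 stood apart from the next exposed animal, exposed animal 5, at -0.85. The difference of means was 0.48 (95% interval -0.74 to 1.70). It was -0.045 without exposed animal 2, -0.25 with slide as a block and -0.44 within slide 3.

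Myh7 (gene ID 29557) encodes the beta myosin heavy chain, the motor protein of slow fibres and of the heart ventricle. Its signal was -4.23 at the lowest, -3.33 at the median and -0.69 at the highest in exposed skin. In sham skin it was -4.27 at the lowest, -3.85 at the median and -1.68 at the highest. The lowest values of the groups were thus nearly alike, and the median and the highest value were higher in exposed skin, with overlapping groups. The difference of means was 0.42 (95% interval -0.79 to 1.62), and it was -0.036 without exposed animal 2 and -0.088 within slide 3. Myh6, the closely related alpha myosin heavy chain of the heart, differed by 0.33 (95% interval -0.39 to 1.05) and was also highest in exposed animal 2. Whether signal of one of these genes reaches the probe of the other was not tested.

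The oxidative genes were Mb and Ckmt2. Mb (gene ID 59108) encodes myoglobin, which stores oxygen in the fibre and carries it to mitochondria. It was well above background on all 14 arrays, at -2.66, -0.87 and 3.15 for the lowest, median and highest exposed animal. The lowest, median and highest sham animals lay at -3.07, -2.09 and 1.61. Its highest and lowest animals, exposed animal 2 and sham animal 2, were 74.5-fold apart. The difference of means was 0.92 (95% interval -1.12 to 2.96), or 1.89-fold (0.460 to 7.76), and it was 0.18 without exposed animal 2 and -0.11 within slide 3. Cygb, the related cytoglobin of fibroblasts, had an SD of 0.36 over the 14 animals against 1.91 for Mb, and its difference was -0.15 (95% interval -0.54 to 0.25).

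Ckmt2 (gene ID 688698) encodes the sarcomeric mitochondrial creatine kinase, which passes the energy of mitochondrial ATP to phosphocreatine. It was well above background on 7 arrays, 4 of 6 exposed and 3 of 8 sham. On these its signal ran from -6.36 in sham animal 3 to -0.56 in exposed animal 2, a span of 55.8-fold. The means over all arrays were -4.91 ± 2.68 (SD, n = 6) and -6.24 ± 2.32 (SD, n = 8), a difference of 1.32 (95% interval -1.30 to 3.94). It was 0.45 without exposed animal 2, 0.25 with slide as a block, 0.56 with normexp background correction and -0.42 within slide 3. Ckmt1, the mitochondrial creatine kinase of non-muscle tissues, had an SD of 0.20 over the 14 animals and a difference of -0.10 (95% interval -0.33 to 0.12). The cytosolic muscle form Ckm had an SD of 2.81, beside 2.48 for Ckmt2, and a difference of 1.64 (95% interval -1.31 to 4.59).

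**Figure D2:**
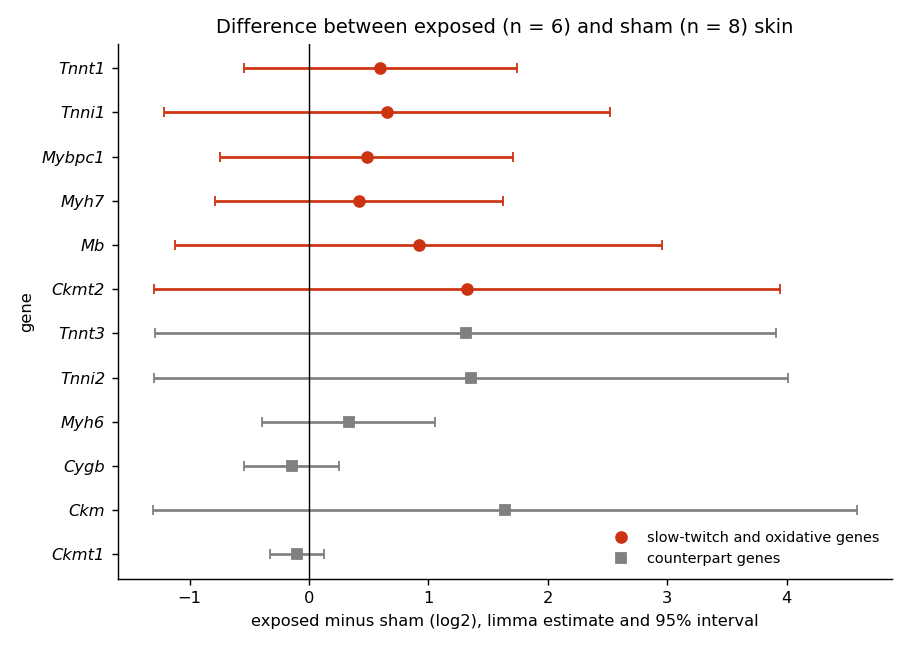
Difference between exposed (n = 6) and sham (n = 8) skin on the log2 scale (horizontal axis) for the 6 genes (circles) and related counterpart genes (squares), as limma estimates with 95% intervals. All 6 estimates for slow-twitch and oxidative genes lie above 0, from 0.42 to 1.32, and all 12 intervals hold 0.

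The direction of the difference changed with the animals and slides used, though not for every gene in each setting. Without exposed animal 2 the differences were 0.23 for Tnnt1, 0.18 for Mb and 0.45 for Ckmt2, and those of Tnni1, Mybpc1 and Myh7 were at or below -0.018. Within slide 3, with 3 arrays of each group, all 6 genes were lower in exposed skin, from -0.44 for Mybpc1 to -0.062 for Tnni1. Within slide 4, where the only exposed array is that of exposed animal 6, all 6 were higher, from 0.13 for Mybpc1 to 1.60 for Ckmt2. Slides 1 and 2 held 1 group each, so slide and group cannot be told apart there. With slide as a fixed block the differences were 0.13 for Tnni1, 0.031 for Myh7, 0.17 for Mb and 0.25 for Ckmt2. Those of Tnnt1 and Mybpc1 were -0.076 and -0.25. With slide as a random block all 6 were positive, from 0.44 for Myh7 to 1.41 for Ckmt2.

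**Figure D3:**
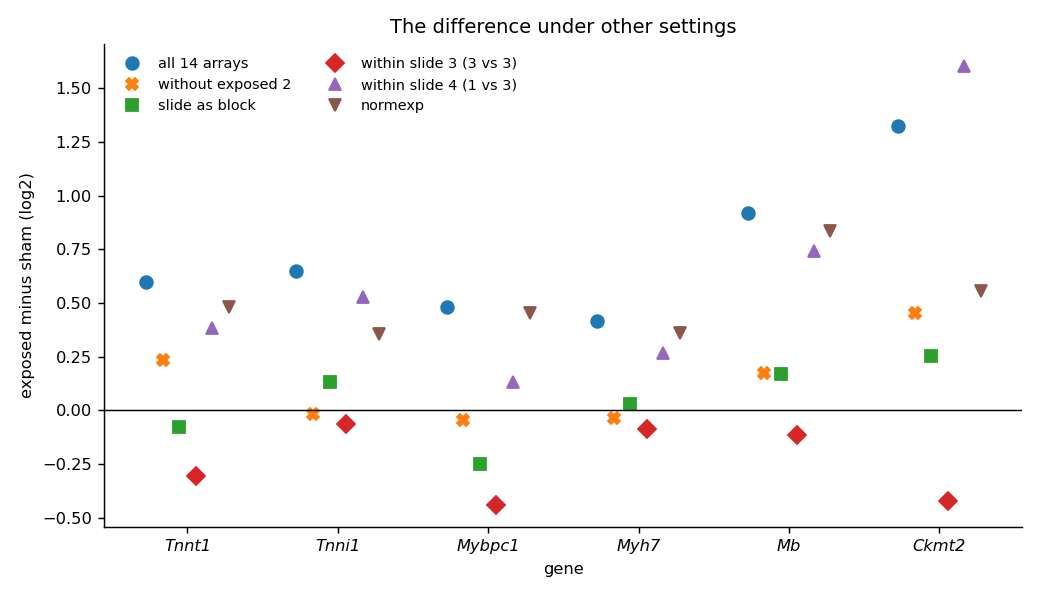
Exposed minus sham difference on the log2 scale (vertical axis) of each gene (horizontal axis) over all 14 arrays and under other settings, 1 symbol per setting. Within slide 3 every gene lies below 0, down to -0.44, while over all 14 arrays every gene lies above 0, up to 1.32.

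Among animals the genes kept nearly 1 order. Exposed animal 2 was the highest and sham animal 5 the second for 6 of 6 genes. The same 4 animals, 2 exposed (2 and 5) and 2 sham (5 and 7), took the 4 highest places for every gene, and they came from slides 2, 3 and 4. The lower places were less alike: exposed animal 1 was at place 5 for Tnnt1 and at place 13 for Tnni1 and Myh7. Sham animal 8 was the lowest for Tnnt1, Mybpc1 and Myh7 but held place 6 for Tnni1. Averaged over the 6 genes, each centred on its mean over the 14 animals, exposed animals ran from -1.21 to 3.44 and sham animals from -1.48 to 2.22.

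The spread over the 14 animals differed between the genes and was larger for the oxidative genes Mb and Ckmt2 than for the contractile genes. The SD was 1.08 for Tnnt1, 1.73 for Tnni1, 1.14 for Mybpc1 and 1.11 for Myh7, and it was 1.91 for Mb and 2.48 for Ckmt2. The median SD over all genes was 0.243. With normexp, which adds an offset of 50 scanner units and so compresses dim signals, the SD was 0.783 for Tnni1 and 1.14 for Ckmt2, the 2 genes below background on many arrays.

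The fast-twitch contractile and calcium-handling genes moved over the animals with the slow-twitch and oxidative genes. Of 15 listed genes 11 were measured. All 11 were highest in exposed animal 2, as were the 6 genes described here, and 11 were higher and 0 lower on average in exposed skin, with 0 called and a median difference of 1.31. Tnnt3, fast troponin T, had an SD of 2.46 and a difference of 1.31, beside 1.08 and 0.60 for Tnnt1. Tnni2, fast troponin I, had an SD of 2.51 and a difference of 1.36, beside 1.73 and 0.65 for Tnni1. Tnnc2, fast troponin C, differed by 1.85 and the calcium buffer Pvalb by 0.18. The difference for Myh1, the type 2X myosin heavy chain, was 3.20, but its probe was well above background on only 11 arrays, so this size rests in part on values that are not. The summed signal of the list, in multiples of each array's 75th percentile, ran from 2.41 to 151.4 in exposed and from 1.63 to 64.3 in sham skin. The list's part in the exposed minus sham differences above was not tested. Mybpc2 and Mylpf had no matched probe. The fast myosin genes Myh4 and Myh2 did not pass the filter, and the Myh4 probe was above background on 5 arrays, with its highest signal, -1.32, also in exposed animal 2.

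**Figure D4:**
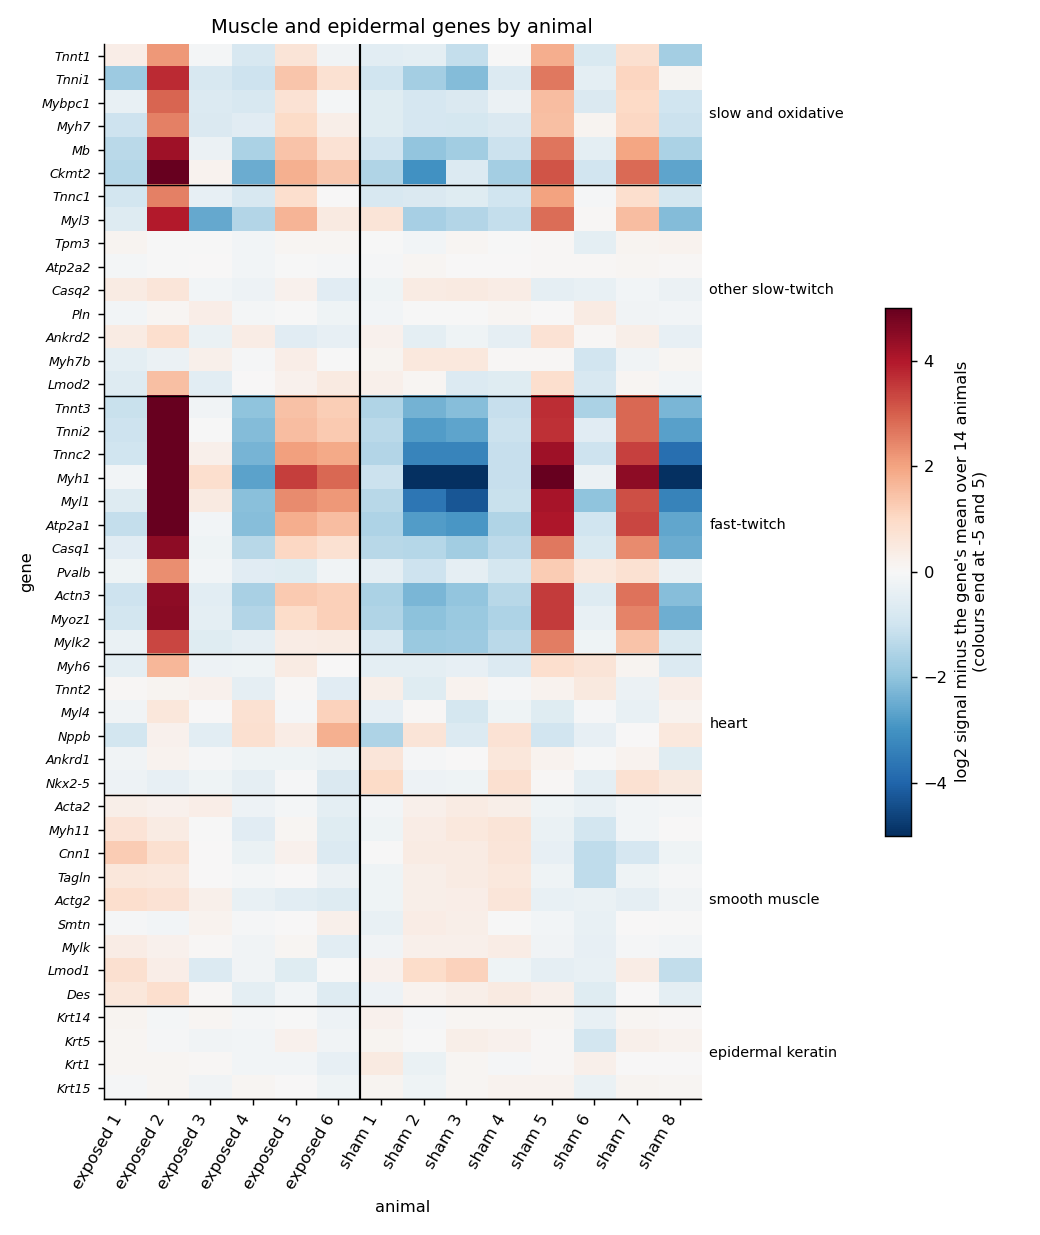
Centred log2 signal, with 0 at each gene's mean (colour, from -5 to 5), for genes of 6 lists (rows) in each animal (columns, exposed left of the line and sham right). The 6 slow and oxidative genes and the 11 fast-twitch genes are highest in exposed animal 2, where Mb is 4.23 above its mean, and the epidermal keratins hardly vary.

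Each gene was then set against the mean of the 11 fast-twitch genes in the same animal, all centred on their own means, which shows unequal change within an array. Mb and Ckmt2 kept close to the fast-twitch mean, with an SD of this relative value of 0.618 and 0.660 over the 14 animals. The Ckmt2 probe was well above background on only 7 arrays, so its closeness rests in part on dim values. For Tnnt1, Mybpc1 and Myh7 the SD was 1.47, 1.39 and 1.40, and for Tnni1 1.11. In exposed animal 2, where the fast-twitch mean was 4.78, the relative value was -2.62 for Tnnt1, -2.27 for Myh7 and -1.87 for Mybpc1, and it was 0.33 for Ckmt2. At the other end, in sham animal 2, where the fast-twitch mean was -2.71, Tnnt1 stood 2.23, Myh7 1.86 and Mybpc1 1.85 above it. These slow contractile genes therefore spanned a narrower range than the fast-twitch mean at both ends. The relative value of each gene had a lower mean in exposed than in sham skin, with differences of -0.86 for Tnnt1, -0.81 for Tnni1, -0.97 for Mybpc1, -1.04 for Myh7, -0.54 for Mb and -0.13 for Ckmt2. The fast-twitch mean was itself 1.46 higher in exposed animals. A gene that follows this mean over a narrower range gets a negative relative difference from the subtraction alone, so no loss of slow-twitch signal is read from the sign. The sign for Ckmt2 turned in 3 of 22 other settings, to 0.14 without sham animal 3, 0.0023 without exposed animal 4 and 0.087 within slide 4. That of the other 5 genes did not turn, but its size moved: the difference was -0.43 for Tnnt1 without exposed animal 2 and -0.47 for Tnni1 without sham animal 8. Within slide 3 it was -0.32 for Tnnt1, -0.075 for Tnni1, -0.45 for Mybpc1, -0.10 for Myh7 and -0.13 for Mb. With normexp the difference was -0.21 for Mb but -0.49 for Ckmt2. It was -0.56 for Tnnt1, -0.59 for Mybpc1, -0.69 for Tnni1 and -0.69 for Myh7 in that setting, so Ckmt2 then lay nearer to the slow contractile genes. The fast-twitch mean includes Myh1 and Myl1, whose probes were well above background on only 11 and 9 arrays. With genes above background on all 14 arrays only, the difference was -0.55 for Tnnt1, -0.67 for Mybpc1, -0.73 for Myh7 and -0.23 for Mb. The relative value of Tnnt1 was -0.49 ± 1.43 (SD, n = 6) in exposed animals and 0.37 ± 1.49 (SD, n = 8) in sham animals, so the difference was smaller than either SD. That of Mb was -0.31 ± 0.32 (SD, n = 6) and 0.23 ± 0.70 (SD, n = 8), a difference between those SDs in size.

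**Figure D5:**
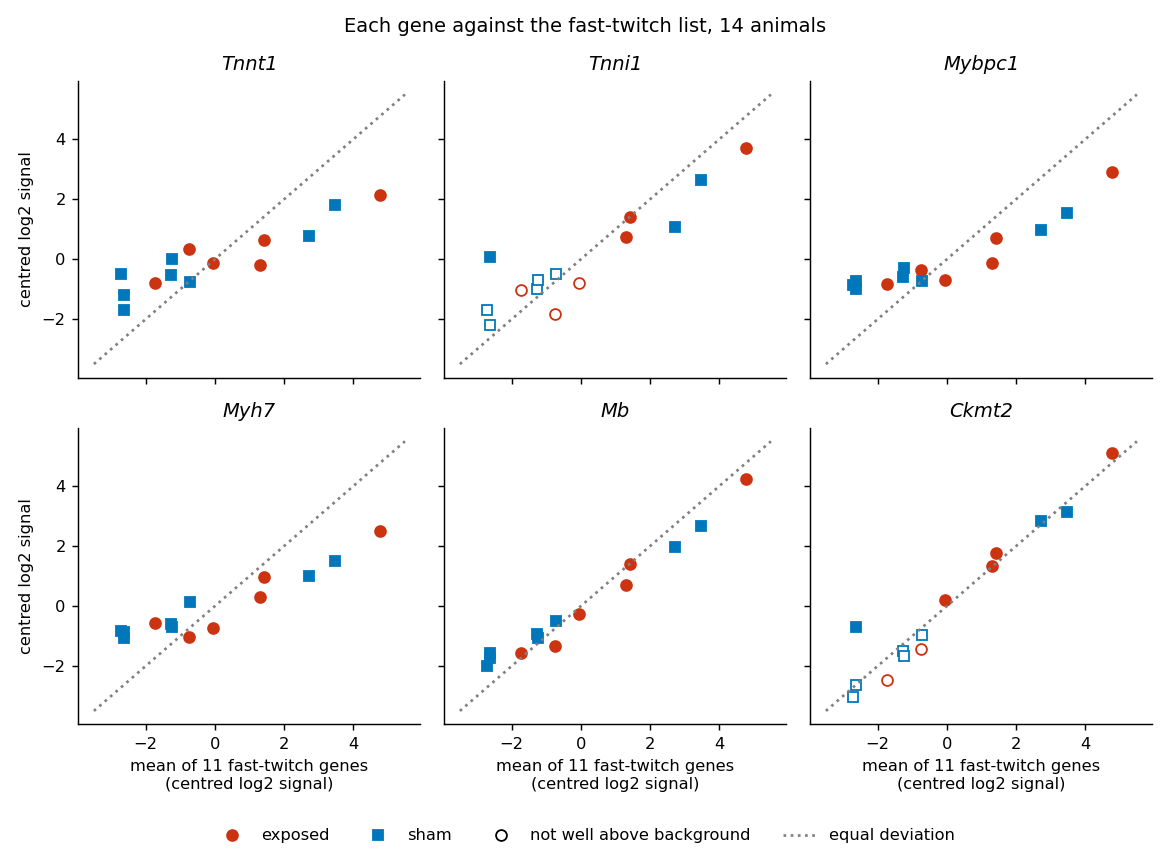
Centred log2 signal of each gene (vertical axis) against the mean of 11 fast-twitch genes (horizontal axis) in 14 animals. Circles are exposed and squares sham animals, open symbols are not well above background, and the dotted line marks equal deviation. Mb and Ckmt2 run along the line, while Tnnt1, Mybpc1 and Myh7 run flatter, with Tnnt1 at -2.62 relative to the fast-twitch mean in exposed animal 2.

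Other slow-twitch genes varied in different ways over the animals. Of 13 listed genes 9 were measured, 6 higher and 3 lower in exposed skin, with 0 called and a median difference of 0.086. Tnnc1, the troponin C of slow fibres and heart, had an SD of 1.13 and a difference of 0.36 (95% interval -0.88 to 1.59). Myl3, the ventricular and slow myosin light chain, was well above background on 10 arrays and had an SD of 1.96 and a difference of 0.42, and both genes were highest in exposed animal 2. The slow-fibre calcium pump gene Atp2a2 and the tropomyosin gene Tpm3, which other cells also express, had SDs of 0.067 and 0.17 and differences of -0.088 and 0.050. Casq2 and Ankrd2, with SDs of 0.39 and 0.47, were also highest in exposed animal 2, but centred Casq2 was -0.46 in sham animal 5 and Ankrd2 was lowest in exposed animal 5. Myh7b, with an SD of 0.39, was highest in sham animal 2. Myl2 and Csrp3, 2 genes of slow and cardiac muscle, were above background only in exposed animals 2, 5 and 6 and sham animals 5 and 7.

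Of 14 other genes of oxidative fibres 10 were measured, 8 higher and 2 lower, with 0 called and a median difference of 0.042. The muscle forms of cytochrome c oxidase subunits, Cox6a2 and Cox8b, had SDs of 2.79 and 2.04 and differences of 1.61 (95% interval -1.32 to 4.54) and 0.85 (95% interval -1.34 to 3.04). Cox6a2 was well above background on 13 arrays. The fatty acid carrier Fabp3 and the muscle carnitine transferase Cpt1b had SDs of 0.31 and 0.27 and differences of 0.11 and 0.019. Hadha, of mitochondrial fatty acid oxidation, differed by -0.13, the lowest of the list. The regulators Ppargc1a and Esrrg were well above background on 0 of 14 arrays. Perm1, also listed, was so on 4 arrays, those of exposed animal 2 and sham animals 1, 5 and 7. Its highest signal, -4.32, was in exposed animal 2.

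The list means of the glycolytic genes and of structural genes shared by fibre types were highest in the same 4 animals, in the order exposed 2, sham 5, sham 7 and exposed 5. Of 11 listed glycolytic and phosphagen genes 10 were measured, 9 higher and 1 lower, with 0 called and a median difference of 0.25, and 8 were highest in exposed animal 2. Pygm, the muscle glycogen phosphorylase, differed by 0.41, Pgam2 by 1.58 and the muscle enolase Eno3 by 0.59, and the 1 lower gene was Ldha at -0.030. Of 19 shared structural genes 8 were measured, 6 higher and 2 lower, with 0 called and a median difference of 0.10, among them skeletal actin Acta1 at 1.58 (95% interval -1.23 to 4.40) and the membrane protein Cav3 at 0.66. Desmin (Des), which smooth muscle also expresses, differed by 0.046, and the 2 lower genes were Fbxo32 at -0.0046 and Jph1 at -0.0061.

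The 10 named genes whose profile over the 14 animals was closest to the mean profile of the 6 genes were Fitm1, Ampd1, Eno3, Pygm, Mylk2, Tnnc1, Ankrd23, Trim54, Rbfox1 and Art1. The measure was the root mean square difference of centred log2 signals over the animals. It was 0.27 for Fitm1, 0.29 for the muscle AMP deaminase Ampd1 and 0.31 for Eno3, and 0.55 for Art1, the last of the 10. For the 6 genes themselves it ran from 0.40 for Mb to 1.03 for Ckmt2. All 10 were highest in exposed animal 2, and their differences ran from 0.26 for Art1 to 0.81 for Mylk2 and Rbfox1. They were picked for likeness to a profile that is itself highest in exposed animal 2. Both features therefore follow largely from the choice, and nothing further is read from them.

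Genes of other muscle and of other skin cells were given beside these. Of 11 heart muscle genes 6 were measured, 3 higher and 3 lower, with 0 called. The mean of this list was also highest in exposed animal 2, at 0.38, where Myh6 was the only one of the 6 genes at its highest. At an unadjusted p under 0.05 in limma, 2 of these 6 heart genes were found, Myl4 at 0.66 and Nkx2-5 at -0.60. Over all genes 636 of 18625 (3.41%) were found so. With so few genes in the list nothing is read from this count. Neither gene was called after adjustment, and Nkx2-5 was well above background on only 6 arrays. The heart-restricted Tnni3, Mybpc3 and Tbx20 were well above background on 0 of 14 arrays, Myl7 on 4 and Nppa on 1. Myh6, Tnnt2, Myl4 and Nppb were so on all 14 arrays and Ankrd1 on 10. Smooth muscle genes were measured for 9 of 10 listed genes, 8 higher and 1 lower, with a median difference of 0.046, and Acta2 and Myh11 differed by 0.0054 and 0.0042. Their list mean ran from -0.41 to 0.59 in exposed and from -0.65 to 0.45 in sham animals, with the highest in exposed animal 1. Of 7 brown adipocyte genes 6 were measured, 3 higher and 3 lower, and Ucp1, the gene that defines these cells, was above background on 0 of 14 arrays. White adipocyte genes were higher in 5 of 5 measured of 7 listed genes, with a median difference of 0.35, and hair follicle keratins in 5 of 5 of 8, with a median of 0.58. Dermal fibroblast genes were higher in 1 and lower in 5 of 6 genes, with a median difference of -0.11, and epidermal keratins were lower in 4 of 4, with a median of -0.068. The means of the smooth muscle, adipocyte, keratin and fibroblast lists were not highest in exposed animal 2, and 0 of their genes were called. The part of these cell types in the results above was not tested.

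Regulators of fibre type and of myogenesis did not have their highest signal in exposed animal 2 where they passed the filter. Of 14 listed genes 6 were measured, 1 higher and 5 lower, with 0 called and a median difference of -0.053. Mef2a, a partner of myogenic factors, differed by -0.086, the calcineurin regulator Rcan1 by 0.084, Sox6, a repressor of slow genes, by -0.019 and Myog by -0.24. Of 9 genes of developing or regenerating muscle 6 were measured, 2 higher and 4 lower, with 0 called and a median difference of -0.055. Myh8, the perinatal myosin heavy chain, differed by 3.12 (95% interval -0.96 to 7.19) and embryonic Myh3 by 0.40. Myh8 was well above background on 12 arrays and Myh3 on 9, so these sizes too rest in part on values that are not. Both were highest in exposed animal 2, and whether the Myh8 probe also reads adult myosin transcripts was not tested. Chrna1 and Ncam1, among the 4 lower genes, differed by -0.13 and -0.053. Chrng and Pax7 were above background on 0 of 14 arrays.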

How the data were processed

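Per the labels' protocols, total RNA of skin biopsies of 15 to 20 mg was labelled with Cy3 from 0.1 ug RNA. The rats shared cages in pairs that are not identified here, so cage could not be modelled. Animals are treated as independent, which was not tested. If cage mates are alike, the intervals and p-values are inexact. The values used are linear spot intensity from the deposited scanner output of Agilent Feature Extraction 10.7.3.1 (per the file headers), background-subtracted and unscaled between arrays. Other columns of the deposited files hold flags per spot. The authors' deposited table holds log2 values centred on each probe's median; how it was normalized is not stated, and it served as an alternative.

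Of 62976 spots per array, 4259 control spots and outlier-flagged spots were left out. Log2 signals minus the array's 75th percentile were averaged per probe, 21014 of 30367 probes well above background on at least 6 arrays were kept, and a gene took its brightest probe. Accessions were matched without version to a RefSeq table of assembly GRCr8, which named 17998 probes (59.3%). The array design refers to another assembly, so the only coordinates given are those of the RefSeq start windows. The contrast was fitted in R 4.3.3 by limma 3.58.1 (group as the only term, Benjamini-Hochberg adjustment over all genes), tested on simulated data. Intervals are 95% intervals of this fit, and the number of arrays limits their precision.

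The genes, the lists and the alternatives were chosen with earlier results of these data known. The rule for naming covered the 6 genes and their counterparts and the 10 closest profiles. It also covered the first 4 measured genes of each list in a written order, with those of highest and lowest difference. Not all genes under this rule are named here. For the white adipocyte, hair follicle keratin and dermal fibroblast lists only counts and medians are given. Other genes were named after their values were seen. Alternatives covered background correction, normalization, filter, probes, flagged spots, slide, array weights and leaving out each animal.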

Additional observations from a re-analysis of the deposited data

Results flagged for a closer look

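Ckmt2 relative to the fast-twitch list was 1.94 in sham animal 3, far above the other 7 sham animals, whose highest value was 0.12. The gap was 0.765 of the whole range of the sham animals. Such a gap was looked for in 24 groups of values and found in 1, and chance flags about 1 in 20. These values were known when the genes were chosen, so the gap is a description and no test. The Ckmt2 probe was well above background in this animal at -6.36, while the fast-twitch mean there was -2.64. In sham animals 1, 2, 4, 6 and 8 the probe was not well above background, with sham animal 6 at -6.65. Without sham animal 3 the relative difference between exposed and sham was 0.14 in place of -0.13.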

How the results depend on the processing

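The count of genes called at an adjusted p under 0.05 with limma was 0 in each of 26 alternatives. At an unadjusted p under 0.05 it was 2367 with array weights, 1549 without sham animal 6, 990 without exposed animal 3 and 295 within slide 4, against 636. Of those 636 genes 192 were higher in exposed skin, and with quantile normalization 278 of 647 were. None of the 6 genes' differences moved by more than the SD within groups in any setting run, but this SD is larger than each difference itself. The sign turned in 2 of 26 for Tnnt1, 2 of 24 for Tnni1, 3 of 26 for Mybpc1, 2 of 25 for Myh7, 1 of 26 for Mb and 1 of 24 for Ckmt2. Every turn came within slide 3, with slide as a fixed block or without exposed animal 2. Some other settings, such as keeping flagged spots, left the values the same, so these counts do not measure stability. Leaving out 1 animal, the ranges were 0.23 to 0.90 for Tnnt1, -0.018 to 1.09 for Tnni1, -0.045 to 0.73 for Mybpc1, -0.036 to 0.67 for Myh7, 0.18 to 1.36 for Mb and 0.45 to 1.97 for Ckmt2. Relative to the fast-twitch list the differences of Tnnt1, Tnni1, Mybpc1, Myh7 and Mb stayed negative in all settings run but changed in size. They ran from -1.19 to -0.32 for Tnnt1, -1.09 to -0.075 for Tnni1, -1.38 to -0.45 for Mybpc1, -1.39 to -0.10 for Myh7 and -0.78 to -0.13 for Mb. The difference of Ckmt2 ran from -0.49 to 0.14 and its sign turned in 3 of 22. The fast-twitch mean was itself 1.46 higher in exposed animals, so these signs follow in part from the measure. Filtering on all 14 arrays and the authors' deposited values gave no value for Tnni1 and Ckmt2, and the latter none for Myh7. No paired analysis was possible because the labels give no replicate numbers. Signal over background limits Tnni1 and Ckmt2 most.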

Other observations

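Several muscle regulators were above background only in the animals with the highest slow-twitch and oxidative signals. Myod1, a myogenic determination factor, was well above background in exposed animal 2 and sham animals 5 and 7, with its highest signal of -4.05 in exposed animal 2. Myf6, another myogenic factor, was well above background on 1 array, that of exposed animal 2, at -5.19. The sarcomere genes Xirp2 and Actn2 were so on 3 and 4 arrays, again with exposed animal 2, sham animal 5 and sham animal 7 among them, and Smpx on 2 arrays, those of exposed animal 2 and sham animal 5. Trim63, a muscle ubiquitin ligase, did not share this: it was above background in sham animals 1 and 3. These genes did not pass the filter and were in no comparison.

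Tnni1 in sham animal 8 lay at -5.47 and was well above background, while Tnnt1, Mybpc1 and Myh7 were at their lowest there, at -3.47, -2.56 and -4.27. Relative to the fast-twitch list Tnni1 stood 2.71 above in this animal, the highest of the 14.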
